A study of Mus musculus with 8 samples.

Results

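Transcripts of 10 integrin and adhesion receptor genes linked to the residence of T cells in tissue were compared between CCR8+ and CCR8- conventional CD4+ T (Tconv) cells from mouse melanoma. The genes were Itgae, Itga4, Itgal, Itgav, Itgb1, Itgb2, Itgb7, Cd44, Selplg and Cd69, matched by symbol, and all 10 had a row among the 11233 genes of the normalized table. The 8 bulk RNA-Seq libraries comprised 4 replicates each of CCR8+ and CCR8- cells, both sorted as EGFP-negative CD4+ cells from subcutaneous B16-F10 tumors, a transplantable melanoma line. All hosts were Foxp3EGFP-DTR mice, 8 to 14 weeks old, in which diphtheria toxin (DTx) kills Treg cells because the Foxp3 locus drives its receptor along with EGFP. Every animal was given DTx in 4 injections of 1 μg between day 7 and day 13 after implantation, and cells were taken on day 16 according to the methods, although the sources used here differ on this day. No library came from a mouse with its Treg cells left in place, so both groups are Tconv cells of depleted animals. The paper describes these as biological replicates, with all cells isolated on the same day. The labels do not say whether each replicate was 1 animal or a pool, nor whether a replicate number shared by both groups stands for 1 animal. If the replicates of a group were not separate animals, the p-values measure only the spread between these libraries.

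Integrins are paired receptors, made of an alpha and a beta chain, that hold cells to other cells and to the matrix. The chain CD103, encoded by Itgae, pairs only with the beta 7 chain and binds E-cadherin on epithelial cells, and with CD69 it is the usual surface marker of tissue-resident memory T cells. CD69 is also an early activation marker, which keeps T cells in tissue by pulling the exit receptor S1PR1 off the cell surface. LFA-1 (Itgal with Itgb2), VLA-4 (Itga4 with Itgb1), PSGL-1 (Selplg) and CD44 serve mainly in rolling, arrest and movement through tissue.

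The values used are normalized counts, meaning the read count of a gene divided by 1 factor for its library. Between 12067780 and 17802628 reads were counted per library, 3 reads corresponded to 2.21 to 3.42 normalized counts, and limits of this kind cover counting error only. Ccr8, the sort marker, was at 1293 to 6214 normalized counts in CCR8- and 6970 to 42508 in CCR8+ cells, with no overlap. Detected genes numbered 8569 in CCR8- replicate 1 and up to 10882 elsewhere. Genes at 0 in 1 library although all the others had 100 or more normalized counts numbered 242 in CCR8- replicate 1. This number was 44 for CCR8+ replicate 1, 36 for CCR8+ replicate 3 and 0 for the other 5. These 3 libraries also had the lowest mean correlations with the other 7 over tested genes (Pearson r 0.690 to 0.729, against 0.776 to 0.819), and the main results are also given without them, a choice made after seeing the data. That left 3 CCR8- and 2 CCR8+ libraries. Of the CD4 T cell markers 11 of 14 were in the table, and the ranges of their sum overlapped, at 103504 to 140509 in CCR8- and 104495 to 140601 in CCR8+ cells.

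Most of the 10 transcripts lay lower in CCR8+ cells, but none passed the test over all genes. The log2 fold change of CCR8+ over CCR8- cells was below 0 for 8 genes and above 0 for Itgav and Cd44, with a median of −0.50. Among 11032 tested genes, those averaging 10 or more normalized counts and including all 10, the median was 0.04 and 47.6% lay below 0. Each of the 10 would have met this limit in either group alone, the lowest group mean being 66.2 for Itgae. By limma with Benjamini-Hochberg adjustment over those genes, 0 of the 10 were called at an adjusted p under 0.05, against 0% of all genes tested. The median of the 10 was −0.27 without the 3 libraries that stood apart. The smallest adjusted p of any gene was 0.788. Ccr8, the sort marker, was not called either. Its log2 fold change was 2.37 (SE 0.62), with an adjusted p of 0.829 by limma. At an unadjusted p under 0.05 there were 3 of the 10 (Itgae, Cd69 and Itgb1), against 5.09% of all genes. By edgeR 0 of the 10 were also called (0% of all genes), with 2 at an unadjusted p under 0.05 against 4.41%. By DESeq2, 0 of the 10 were called against 0.251%, with 4 at an unadjusted p under 0.05 against 5.6%. With the replicate number added as a term, DESeq2 called 2 of the 10 (Itgae and Cd69) against 1.16%. No other fit called any of the 10, including limma and edgeR with the same term. In 2 of the 10, Itgae and Cd69, all 4 CCR8+ values lay under all 4 CCR8- values, and this held for 2.03% of all genes tested (4.4% in either direction). In none of the 10 did all CCR8+ values lie above, which held for 2.37% of all genes. Exact two-sided permutation tests of single genes over the 70 assignments of the labels could not go below p = 0.0286. In bulk RNA, fewer cells that express a gene and less RNA per cell cannot be told apart.

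**Figure D1:**
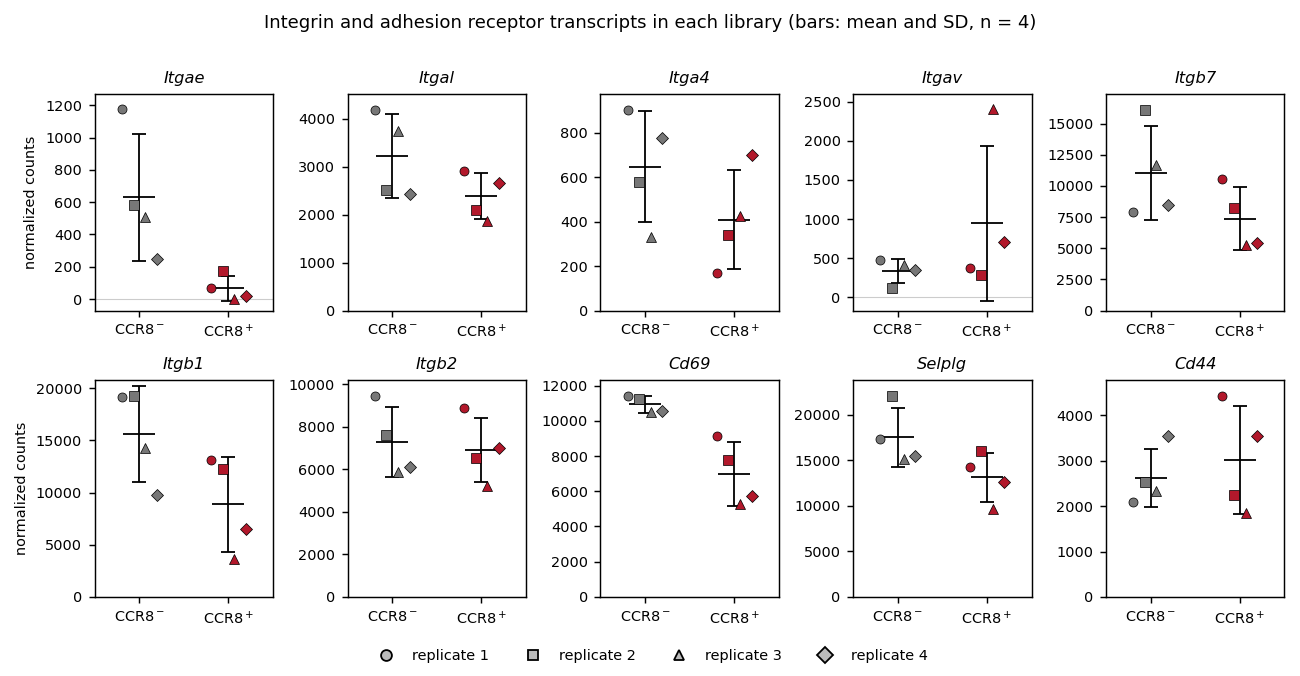
Normalized counts (vertical axes, linear) of the 10 transcripts in each library, with CCR8- cells in gray and CCR8+ cells in red. Symbols mark replicate numbers, and bars give the mean and SD (n = 4 per group). Only for Itgae and Cd69 do all CCR8+ libraries sit below all CCR8- libraries, and Itgav in CCR8+ replicate 3 sits at 2410, above every other library.

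Among the alpha chains, Itgae (CD103) had the widest difference of the 10 genes. It was at 1178, 579.9, 511 and 251 normalized counts in CCR8- replicates 1 to 4 and at 70.3, 175, 0 and 19.2 in CCR8+ replicates 1 to 4. Every CCR8+ library lay below every CCR8- library, and the CCR8- libraries themselves spread widely, replicate 1 being the highest. The levels were 629.9 ± 392 normalized counts in CCR8- and 66.2 ± 78.7 in CCR8+ cells (mean ± SD, n = 4 each), so that the CCR8- mean was 9.51 times the CCR8+ mean. CCR8+ replicate 3 had 0 reads, which allows up to 3.42 normalized counts, while the 4 CCR8- libraries held 2788 reads in all and the 4 CCR8+ libraries 296.

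The log2 fold change of Itgae was −4.60 (SE 1.44), with an adjusted p of 0.838 by limma and an exact permutation p of 0.0286, the smallest this design allows. By replicate number the log2 differences were −4.05, −1.72, −9.00 and −3.64, all 4 below 0. The size of the fold change rests in part on the library at 0. It was −3.11 without CCR8+ replicate 3 and −2.82 without the 3 libraries that stood apart.

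CD8 T cells and some dendritic cells also express Itgae. Both of the 2 CD8 markers, Cd8a and Cd8b1, were detected in all 8 libraries, and their sum was 980 to 3805 normalized counts in CCR8- and 478 to 1227 in CCR8+ cells. Both were lower in CCR8+ cells, with a median log2 fold change of −0.73. CCR8- replicate 1, with the highest Itgae of its group, had the lowest CD8 sum there. CCR8+ replicate 3, with 0 Itgae reads, had the lowest CD8 sum of the CCR8+ group, at 478. The dendritic cell markers, 11 of 13 in the table, summed to 5778 to 55144 in CCR8- and 4638 to 33992 in CCR8+ cells, and none of them was at 0 in every library. Of the 11, 8 had a higher and 3 a lower log2 fold change in CCR8+ cells, with a median of 0.38. Flt3 was at 0 in 7 of the 8 libraries, while Zbtb46, Xcr1, H2-Ab1, H2-Aa, H2-Eb1 and Cd74 were detected in all 8. The 3 lower genes were Cd209a, Clec10a and Itgax. Cd209a was at 0 to 583 in CCR8- and 0 to 1.68 in CCR8+ cells. Clec10a was at 32.5 to 805 and 0 to 487, and Itgax at 0 to 225 and 0 to 29.4. The part of these cells in the Itgae values was not tested.

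Itgal, the alpha chain of LFA-1, was the most abundant alpha transcript per kb of exon in both groups. It was at 4186, 2516, 3739 and 2433 normalized counts in CCR8- replicates 1 to 4 and at 2908, 2106, 1877 and 2649 in CCR8+ replicates 1 to 4. The groups overlapped, and the values of 3 of the 4 replicate numbers were lower in CCR8+ cells. The log2 fold change was −0.41 (SE 0.25), with an adjusted p of 0.838 by limma and an exact permutation p of 0.200.

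Itga4, the alpha chain shared by VLA-4 and the gut-homing receptor alpha 4 beta 7, spread widely in both groups. It was at 903, 576, 331 and 777 normalized counts in CCR8- replicates 1 to 4 and at 169.7, 338, 425 and 699.9 in CCR8+ replicates 1 to 4. Both groups held high and low libraries, and the log2 fold change of −0.74 (SE 0.49) had an adjusted p of 0.838 by limma and an exact permutation p of 0.229. Of the exonic bases of Itga4, 8.04% lie across from Cerkl on the other strand. The use of strand in counting is not given in the sources used here, so reads of the 2 genes cannot be told apart there.

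Itgav encodes the alpha V chain, which binds matrix proteins such as vitronectin and helps to activate TGF-β, and its values were higher in CCR8+ cells in 3 of the 4 replicate numbers. It was at 475, 123, 419 and 349.8 normalized counts in CCR8- replicates 1 to 4 and at 382, 284, 2409.7 and 711 in CCR8+ replicates 1 to 4. A single library, CCR8+ replicate 3, stood far above the rest, while CCR8+ replicates 1 and 2 lay within the CCR8- range. The log2 fold change was 1.11 (SE 0.67), with an adjusted p of 0.838 by limma and an exact permutation p of 0.257, and it was 0.48 without that library. Macrophages express Itgav too. Of their markers 16 of 17 were in the table, with none at 0 in every library. The sum was 8659, 14841, 6219 and 96289 normalized counts in CCR8- replicates 1 to 4. In CCR8+ replicates 1 to 4 it was 38652, 26481, 5584 and 29425. In CCR8- replicate 1 most of the sum was Ccr2 (6093) and Ly6c2 (2476), which were at 756 and 1073 in CCR8+ replicate 3. Lyz2 was at 14.8 in CCR8- replicate 1 and 1396 in CCR8+ replicate 3, the lowest value of each group. Of the 16, 12 had a higher and 4 a lower log2 fold change in CCR8+ cells, with a median of 2.11. This median ran from 0.36 to 3.62 with libraries left out. The part of these cells in the Itgav values was not tested. In this gene 5.90% of the exonic bases lie across from Gm13684 on the other strand.

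Per kb of exon, the beta chains had higher levels than the alpha chains. Itgb1, the beta 1 chain of the VLA receptors for matrix and VCAM-1, was at 19180.2, 19269.8, 14292 and 9725 normalized counts in CCR8- replicates 1 to 4 and at 13118, 12265, 3611 and 6489 in CCR8+ replicates 1 to 4. The highest CCR8+ library exceeded the lowest CCR8- library, so the groups overlapped, yet each CCR8+ library lay below the CCR8- library of its own number. Levels were 15617 ± 4565 normalized counts in CCR8- and 8870.5 ± 4579 in CCR8+ cells (mean ± SD, n = 4 each), and the log2 fold change was −0.94 (SE 0.41) with an adjusted p of 0.838 by limma and an exact permutation p of 0.114. CCR8+ replicate 3 was again the lowest, and without it the log2 fold change was −0.57.

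Itgb7, the beta 7 chain that pairs with CD103 and with the alpha 4 chain, was at 7877, 16122, 11699.8 and 8486 normalized counts in CCR8- replicates 1 to 4 and at 10579.8, 8246, 5235 and 5439.7 in CCR8+ replicates 1 to 4. Values were lower in CCR8+ cells for 3 of the 4 replicate numbers and higher for number 1. The log2 fold change was −0.59 (SE 0.30), with an adjusted p of 0.838 by limma and an exact permutation p of 0.143.

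Itgb2, the beta 2 chain of leukocyte integrins including LFA-1, had the log2 fold change closest to 0 of the 10 genes. It was at 9444, 7609, 5861 and 6119 normalized counts in CCR8- replicates 1 to 4 and at 8883, 6510.1, 5207 and 7014 in CCR8+ replicates 1 to 4. The 2 ranges covered nearly the same interval, and the log2 fold change of −0.07 (SE 0.24) changed sign when CCR8- replicate 1 (0.064) or CCR8+ replicate 3 was left out, and when all 3 libraries that stood apart were (0.059). The adjusted p was 0.962 by limma and the exact permutation p was 0.771.

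Promoter sequences of 5 of the 10 genes were found in RefSeq (GRCm38.p6), each running from 250 bases before to 50 bases after the transcription start. Those of Itgb1 and Itgb7, the beta chains with the lowest log2 fold changes, and of Itgav, with the highest of the 10, are shown to set these genes side by side. Capitals mark matches on either strand to the letters of 4 motifs, namely a RUNX core (TGTGGT), a GC box (GGGCGG), an AP-1 site (TGANTCA) and an ETS site (CCGGAAG). Of 32851 promoters of the same length, 16.8% held the RUNX core, 35.7% the GC box, 7.81% the AP-1 site and 8.86% the ETS site.
Itgb1, chr8:128685404-128685703, + strand: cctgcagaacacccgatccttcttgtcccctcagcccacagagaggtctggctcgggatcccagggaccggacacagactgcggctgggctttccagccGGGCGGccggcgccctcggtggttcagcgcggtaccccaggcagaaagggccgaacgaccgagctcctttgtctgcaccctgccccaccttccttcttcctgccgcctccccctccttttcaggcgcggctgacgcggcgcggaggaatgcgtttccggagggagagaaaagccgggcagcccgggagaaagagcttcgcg
Itgb7, chr15:102231886-102232185, - strand: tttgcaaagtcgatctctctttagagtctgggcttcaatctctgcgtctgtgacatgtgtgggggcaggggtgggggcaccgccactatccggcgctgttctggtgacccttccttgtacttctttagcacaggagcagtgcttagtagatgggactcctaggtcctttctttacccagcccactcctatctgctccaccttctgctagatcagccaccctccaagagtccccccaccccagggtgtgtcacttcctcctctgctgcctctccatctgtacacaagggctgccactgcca
Itgav, chr2:83724147-83724446, + strand: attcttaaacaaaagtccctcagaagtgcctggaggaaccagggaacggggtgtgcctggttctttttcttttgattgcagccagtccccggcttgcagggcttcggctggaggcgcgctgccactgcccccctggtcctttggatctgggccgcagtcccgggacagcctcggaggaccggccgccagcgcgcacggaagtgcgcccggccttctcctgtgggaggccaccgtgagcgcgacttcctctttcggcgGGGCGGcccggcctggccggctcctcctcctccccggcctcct
The Itgb1 and Itgav promoters each held 1 GC box and none of the other letters, and that of Itgb7 held none of the 4 motifs in this window. The promoter of Itga4 held 1 RUNX core and 1 GC box, and that of Cd44 held 1 GC box. A match is a description of the letters and not a bound site.

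Whether an alpha chain differed apart from its partner was examined as the log2 ratio of the 2 transcripts within each library, after adding 1 normalized count to each, for the 5 pairs that these chains are known to form. The ratio of Itgae to Itgb7 was −2.74, −4.79, −4.52 and −5.07 in CCR8- replicates 1 to 4 and −7.21, −5.55, −12.35 and −8.08 in CCR8+ replicates 1 to 4. Its groups did not overlap, and the mean was lower by 4.02 on the log2 scale in CCR8+ cells (exact permutation p = 0.0286, adjusted p = 0.143 over the 5 pairs). Itgae was thus lower relative to Itgb7 in each CCR8+ library than in any CCR8- library, although the adjusted p did not pass 0.05. Without the 3 libraries that stood apart the difference was −2.02.

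The other pairs overlapped between the groups. The ratio of Itgal to Itgb2 differed by −0.34 (exact permutation p = 0.114, adjusted p = 0.286) and that of Itgav to Itgb1 by 2.05 (exact permutation p = 0.257, adjusted p = 0.429). For Itga4 the difference was 0.20 against Itgb1 (exact permutation p = 0.829) and −0.15 against Itgb7 (exact permutation p = 0.886), both with an adjusted p of 0.886 and both changing sign when single libraries were left out. These ratios compare transcripts and not paired protein at the surface.

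**Figure D2:**
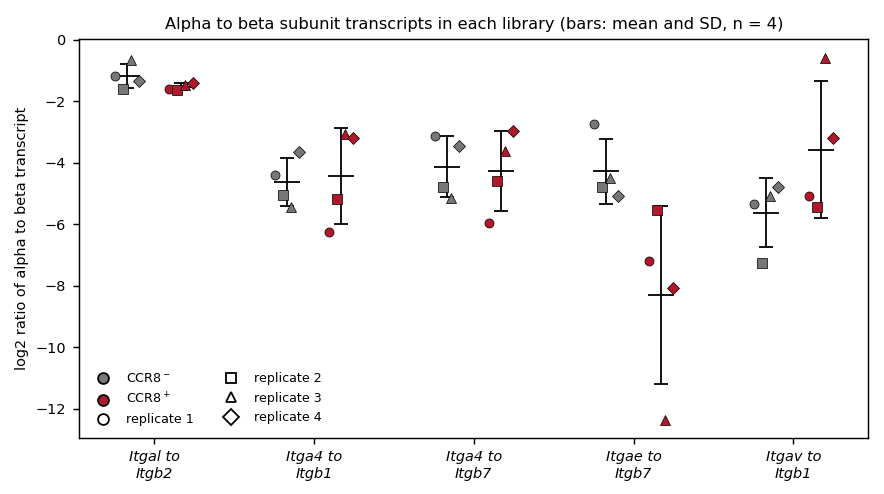
Log2 ratio of the alpha to the beta transcript in each library (vertical axis) for 5 integrin pairs, with CCR8- cells in gray and CCR8+ cells in red. Symbols mark replicate numbers, and bars give the mean and SD (n = 4 per group). Only the ratio of Itgae to Itgb7 separates the groups, and its lowest point, −12.35, is the CCR8+ library with 0 Itgae reads, where the added count of 1 sets the value.

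Outside the integrins, Cd69 had the tightest values of the 10 genes in CCR8- cells. It was at 11418, 11252, 10524 and 10541 normalized counts in CCR8- replicates 1 to 4 and at 9126, 7769.6, 5256 and 5728 in CCR8+ replicates 1 to 4. All CCR8+ libraries lay below all CCR8- libraries, with a wider spread among the CCR8+ libraries. Levels were 10934 ± 469 normalized counts in CCR8- and 6970.0 ± 1804 in CCR8+ cells (mean ± SD, n = 4 each), a mean 1.57 times as high in CCR8- cells. The log2 fold change was −0.68 (SE 0.22), with an adjusted p of 0.838 by limma and an exact permutation p of 0.0286. By replicate number the log2 differences were −0.32, −0.53, −1.001 and −0.88, and the log2 fold change was −0.69 without the 3 libraries that stood apart.

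Selplg encodes PSGL-1, the main P-selectin ligand of T cells, and was lower in CCR8+ cells for all 4 replicate numbers. It was at 17292, 22059, 15129 and 15488 normalized counts in CCR8- replicates 1 to 4 and at 14227, 15974, 9658 and 12642 in CCR8+ replicates 1 to 4. The groups overlapped, since CCR8+ replicate 2 exceeded CCR8- replicates 3 and 4, and the log2 fold change of −0.42 (SE 0.24) had an adjusted p of 0.838 by limma and an exact permutation p of 0.0857. On the log2 scale the differences by replicate number were −0.28, −0.47, −0.65 and −0.29.

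Cd44, the hyaluronan receptor that marks antigen-experienced T cells, showed no common direction. It was at 2082, 2529, 2341 and 3545 normalized counts in CCR8- replicates 1 to 4 and at 4429, 2235, 1846 and 3549 in CCR8+ replicates 1 to 4. CCR8+ libraries held both the highest and the lowest value, and the log2 fold change of 0.14 (SE 0.30) became −0.07 without CCR8+ replicate 1. The adjusted p was 0.934 by limma and the exact permutation p was 0.743.

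**Figure D3:**
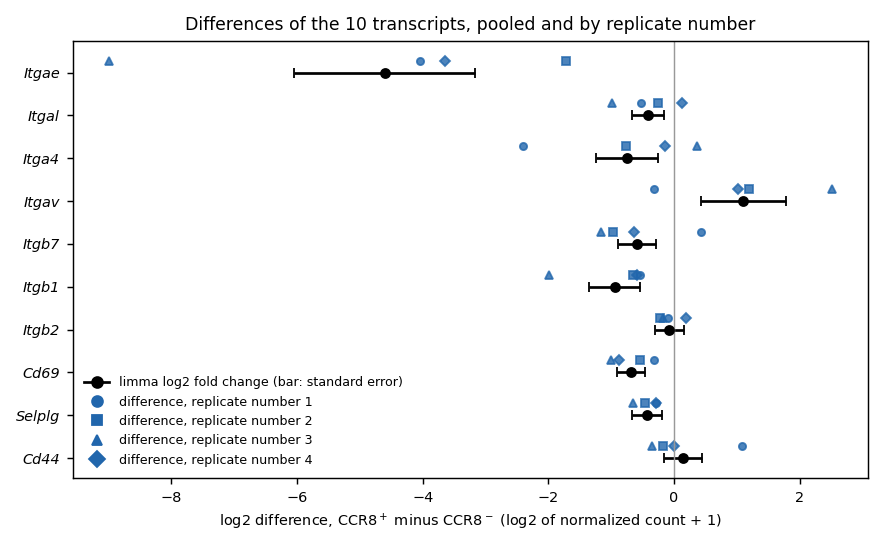
Log2 fold change of CCR8+ over CCR8- cells for the 10 transcripts (horizontal axis), as the limma estimate with its standard error (black) and as the difference for each replicate number (blue symbols). All 4 blue symbols sit below 0 for Itgae, Itgb1, Cd69 and Selplg, and the farthest is −9.00 for Itgae in replicate number 3.

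Ordered by normalized counts per kb of the exons of coding transcripts, the levels ran in CCR8- cells from Selplg (9430 ± 1719, mean ± SD) through Cd69 (6481 ± 278), Itgb7 (4117 ± 1408), Itgb1 (4094 ± 1197), Itgb2 (2444 ± 555), Itgal (504 ± 138), Cd44 (464 ± 113), Itgae (164 ± 102) and Itga4 (66.2 ± 25.6) to Itgav (48.5 ± 21.9). The ranges of neighbours overlapped except between Selplg and Cd69, Cd69 and Itgb7, Itgb2 and Itgal, and Cd44 and Itgae. In CCR8+ cells Selplg (7076 ± 1446 per kb) and Cd69 (4132 ± 1070) again came first, and Itgav (134 ± 141), Itga4 (41.8 ± 22.7) and Itgae (17.2 ± 20.5) came last. There only Itgb2 and Cd44 did not overlap as neighbours. Itgae thus stood at rank 8 of 10 in CCR8- cells and at rank 10 in CCR8+ cells, but in CCR8+ cells it could not be placed apart from Itga4. In GRCm38, a later build than the one the reads were aligned to, Itgae lies on chromosome 11 (73090583 to 73147446, + strand) and Cd69 on chromosome 6 (129267325 to 129275436, - strand).

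The transcripts whose pattern over the 8 libraries was most like that of Itgae, by Pearson r of log2 values among 8407 genes with a mean of at least 100, were Gpr155 (r = 0.988), Satb1 (r = 0.988) and Gpn3 (r = 0.986). Most like Cd69 were Lrrc6 (r = 0.969), Lef1 (r = 0.967) and Gpr183 (r = 0.966). These r span both groups and share the same libraries, so a difference between the groups enters each of them. Itgae, Cd69 and each of these genes also had their lowest value in CCR8+ replicate 3, where Itgae, Gpr155 and Lrrc6 had 0 reads. Lrrc6 had 0 reads in CCR8+ replicate 4 too. The r without CCR8+ replicate 3 were not computed. Satb1, a chromatin organizer of T cells, was at 3599 to 6477 normalized counts in CCR8- and 409 to 3098 in CCR8+ cells. Gpr183, a receptor for oxysterols that guides lymphocyte position, was at 8007 to 11849.8 normalized counts in CCR8- and 1315 to 5492 in CCR8+ cells.

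The other genes of adhesion were read from lists, and limma called 0 genes in each of them (0% of all genes tested). Beside the genes without overlap in each list stands the share over all genes tested. This was 2.03% with CCR8+ cells lower and 2.37% with CCR8+ cells higher. Other integrin subunits had 9 of 20 genes in the table, 7 lower and 2 higher in CCR8+ cells, with a median log2 fold change of −1.30 and 0 genes whose groups did not overlap. In CCR8- replicate 1, a library that stood apart, 6 of these 9 had 0 reads and Itga6 had 1. In CCR8+ replicate 3, another such library, Itga1, Itga2, Itga5, Itga6, Itga7 and Itgax had 0 reads and Itgam had 2. Itga2, the collagen receptor chain of VLA-2, was at 107 to 293 normalized counts in CCR8- and 0 to 185 in CCR8+ cells (log2 fold change −3.21, SE 1.54). Its log2 fold change was −1.74 without CCR8+ replicate 3, which had 0 reads. Itgam, the CD11b chain of macrophages, had a log2 fold change of 1.96 (SE 2.02), with normalized counts from 0 to 145 in CCR8- and from 2.28 to 587 in CCR8+ cells. Itgb3, named after its values were seen, was well above these levels in every library. It ranged from 1236 to 1936 normalized counts in CCR8- and 777 to 1387 in CCR8+ cells (log2 fold change −0.67, SE 0.28), with overlap.

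Genes of integrin activation, the inside-out signals that switch integrins to high affinity, numbered 28 of 30, 21 of them lower and 7 higher, with a median of −0.27. In 2 of them all CCR8+ values lay below all CCR8- values. Rasgrp2, the exchange factor that loads the GTPase Rap1 ahead of LFA-1 activation, was at 1553, 1657, 2048 and 1015 normalized counts in CCR8- replicates 1 to 4 and at 594, 757, 127 and 391 in CCR8+ replicates 1 to 4. Its log2 fold change was −1.97 (SE 0.50), with an adjusted p of 0.829 by limma, and CCR8+ replicate 3 was the lowest library. Dock2, a Rac activator of lymphocyte migration, ranged from 2084 to 4831 normalized counts in CCR8- and 784 to 1943 in CCR8+ cells (log2 fold change −0.92, SE 0.35). By replicate number its log2 differences were −2.62, −0.46, −0.44 and −0.16. The log2 fold change of Dock2 was −0.41 without the 3 libraries that stood apart. Skap2, an adaptor in the same signals, had a log2 fold change of 1.09 (SE 0.34), and its groups overlapped.

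Ligands of integrins and selectins were 11 of 16 genes, 8 lower and 3 higher, with a median of −0.24 and 0 without overlap. Vcam1, the ligand of VLA-4, was at 1.97, 33.1, 0 and 923 normalized counts in CCR8- replicates 1 to 4 and at 0, 37.8, 0 and 124 in CCR8+ replicates 1 to 4. All but CCR8- replicate 4 and CCR8+ replicate 4 were low, the groups overlapped, and the log2 fold change of −1.07 (SE 2.47) was 0.84 without CCR8- replicate 4. Spp1, the secreted integrin ligand osteopontin, had a log2 fold change of 1.53 (SE 0.83) with overlapping groups.

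Enzymes that build selectin ligands on proteins such as PSGL-1 were 11 of 13 genes, 5 lower and 6 higher, with a median of 0.08. Fut7, the fucosyltransferase needed for selectin binding, ranged from 279 to 1518 normalized counts in CCR8- and 117 to 409 in CCR8+ cells, and its log2 fold change was −1.72 (SE 0.61). Of the sulfotransferase genes of this list, Tpst1 and Chst2 lay higher without overlap, while Tpst2, named after its values were seen, had a log2 fold change of −0.51 (SE 0.31) with overlap. Tpst1, which sulfates tyrosines, ranged from 0.985 to 128 normalized counts in CCR8- and 159 to 663 in CCR8+ cells (log2 fold change 2.95, SE 1.33), and Chst2, which sulfates sugars, from 294 to 564 normalized counts in CCR8- and 710.1 to 926 in CCR8+ cells (log2 fold change 0.93, SE 0.31). The lowest Tpst1 value was 1 read in CCR8- replicate 1, and its log2 fold change was 1.52 without that library and 1.07 without the 3 libraries that stood apart.

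Other adhesion receptors of T cells were 20 of 23 genes, 11 lower and 9 higher, with a median of −0.13. Cd96, a receptor for CD155, ranged from 1388 to 2609.9 normalized counts in CCR8- and 0 to 1031 in CCR8+ cells and had 0 reads in CCR8+ replicate 3 (log2 fold change −3.43, SE 1.84). Without that library the log2 fold change of Cd96 was −0.96, and without the 3 libraries that stood apart it was −1.16. Slamf6 ranged from 2093 to 3039 normalized counts in CCR8- and 878 to 2087 in CCR8+ cells (log2 fold change −0.67, SE 0.29). The tetraspanin Cd81 lay higher without overlap, from 586 to 1065 normalized counts in CCR8- and 1504 to 3462 in CCR8+ cells (log2 fold change 1.22, SE 0.31, adjusted p = 0.829 by limma).

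Other genes of tissue residence were 19 of 20, with 8 lower and 11 higher and a median of 0.13. Cxcr6, a chemokine receptor of resident cells, ranged from 12356 to 27214 normalized counts in CCR8- and 19827 to 26253 in CCR8+ cells (log2 fold change 0.30, SE 0.28) and was named after its values were seen. Gpr55, a lipid receptor of intraepithelial lymphocytes, was at 383, 221, 233 and 72.7 normalized counts in CCR8- replicates 1 to 4 and at 71.3, 49.5, 19.4 and 1.74 in CCR8+ replicates 1 to 4. It was the only gene of this list without overlap, with a log2 fold change of −3.20 (SE 1.27), and its lowest library held 2 reads. Gpr15, a homing receptor for the large intestine, had a log2 fold change of −4.07 (SE 2.01), with 0 reads in CCR8+ replicates 3 and 4 and overlapping groups. Litaf, also named after its values were seen, went the other way (log2 fold change 1.34, SE 0.53). It ranged from 857 to 7041 normalized counts in CCR8- and 3883 to 9855 in CCR8+ cells, with overlap.

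Genes of tissue exit and recirculation were 16 of 18, with 12 lower and 4 higher and a median of −0.65. The transcription factor Klf3 was at 1882, 1379, 720.2 and 953 normalized counts in CCR8- replicates 1 to 4 and at 615, 418, 63.9 and 225 in CCR8+ replicates 1 to 4. Its groups did not overlap, nor did those of Lef1, a transcription factor of naive T cells, and S1pr4, a receptor of sphingosine 1-phosphate. The log2 fold changes were −2.22 (SE 0.63) for Klf3, −1.17 (SE 0.30) for Lef1 and −1.26 (SE 0.48) for S1pr4, with adjusted p-values of 0.829, 0.829 and 0.838 by limma. S1pr1, the exit receptor that CD69 antagonizes, and Klf2, which drives its transcription, were named after their values were seen. S1pr1 ranged from 2556 to 5528 normalized counts in CCR8- and 536 to 3014 in CCR8+ cells (log2 fold change −1.67, SE 0.51) and Klf2 from 735 to 4434 normalized counts in CCR8- and 504 to 1573 in CCR8+ cells (log2 fold change −1.19, SE 0.51), both with overlap. Lyn, a kinase common in myeloid cells, had a log2 fold change of 2.83 (SE 1.58), with 0 reads in CCR8- replicate 1. It was 0.52 without replicate 1 of both groups and 0.61 without the 3 libraries that stood apart.

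**Figure D4:**
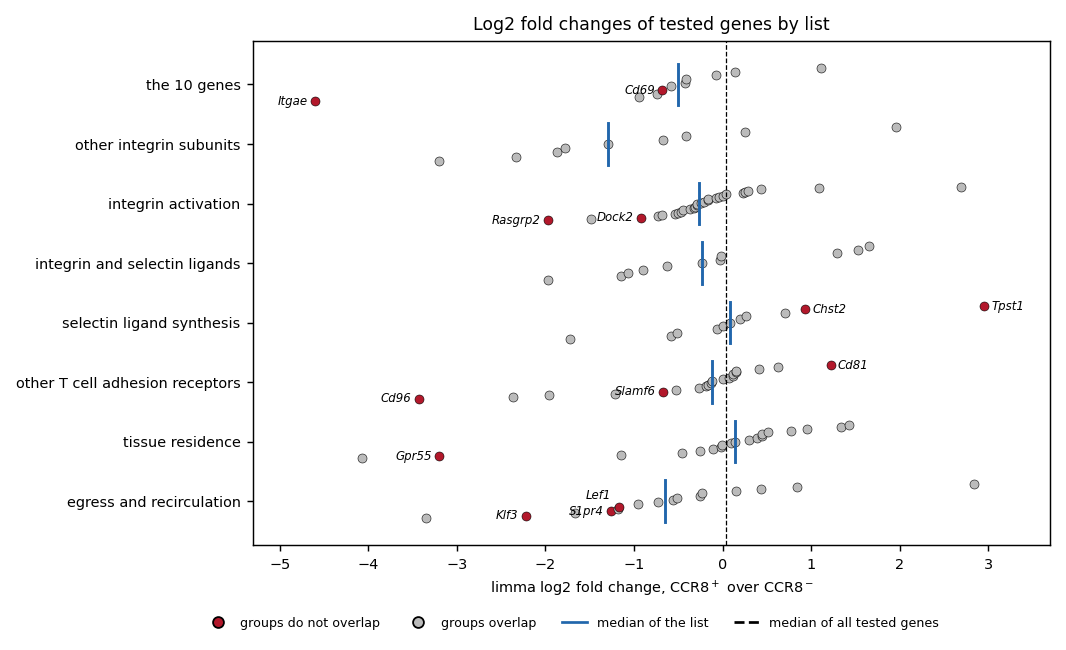
Limma log2 fold change of CCR8+ over CCR8- cells (horizontal axis) for each tested gene of the 10 and of the 7 other lists (rows). Red points are genes whose groups do not overlap (4.4% of all genes tested), blue lines are list medians and the dashed line is the median of all tested genes (0.04). Both red points of the 10 genes (Itgae and Cd69) and all 3 of the exit list (Klf3, Lef1 and S1pr4) sit below 0, while both of selectin ligand synthesis (Tpst1 and Chst2) sit above it.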

How the data were processed

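RNA from sorted CCR8+ and CCR8- Foxp3EGFP-negative CD4+ cells, 4 libraries each, was made into libraries with a low-input Clontech SMARTer kit. According to the methods, the authors aligned trimmed reads to NCBIM37 with hisat2 and kept unique reads. The submitters' processing notes name FastQC, cutadapt, HTSeq and DESeq2, with no versions, and the use of strand is not given in the sources used here. The deposited values are a normalized signal per gene, read counts divided by 1 factor per library, and 100% of values were whole multiples of 1 read (within 0.01), so reads were recovered. Columns of per-sample values not used numbered 0. Of 11233 rows 20 were at 0 throughout and 1 name was repeated.

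Values were tested without rescaling as log2(normalized count + 1), for genes averaging 10 or more, with limma 3.58.1 in R 4.3.3 (intensity trend, Benjamini-Hochberg, adjusted p under 0.05), and single genes with exact two-sided permutation tests. The recovered read counts were tested with edgeR 4.0.16 (quasi-likelihood) and DESeq2 1.42.0 (Wald). Libraries were grouped by their titles. On simulated counts with the spread of these libraries and 200 genes shifted by 3 on the log2 scale, limma recovered 138 of 200 with 9 false calls among 10731 genes, edgeR 139 with 9 and DESeq2 171 with 67. The shifted genes averaged 100 or more normalized counts. Smaller shifts were not simulated, nor were libraries like the 3 that stood apart. Of the 10 genes only Itgae had an absolute log2 fold change above 1.11. The 10 genes, the lists and the tests were chosen with earlier results of these data known. Named besides the 10 were list genes whose groups did not overlap, the 2 of each list with the largest absolute log2 fold change and a mean of at least 100, and the 3 genes most like Itgae and Cd69. Exceptions are stated. Some list genes are not reported here and were dropped from their lists once results were known. Alternatives were other scalings, pseudocounts, filters, left-out libraries and the replicate number as a block. Lengths were taken from GENCODE and promoters from RefSeq.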

Additional observations from a re-analysis of the deposited data

Results flagged for a closer look

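Of 58 groups of 4 libraries examined for 29 named genes, 5 held a library far from the others, and chance gives about 1 in 20. None was a group of the 10 adhesion genes. Cd81 was at 3462 normalized counts in CCR8+ replicate 3, against 1504 to 1749 in the other CCR8+ libraries. S1pr4 was at 312 in CCR8- replicate 4, against 481 to 490 in the other CCR8- libraries. In the same library Lef1 was at 1493, against 2087 to 2179 in the others. Vcam1 was at 923 in CCR8- replicate 4, against 0 to 33.1 in the other CCR8- libraries. Lyn was at 879 in CCR8+ replicate 1, against 168 to 224 in the other CCR8+ libraries.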

How the results depend on the processing

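Of 290 values of the 10 genes under 29 alternatives, 5 changed sign and 2 passed the threshold. Itgb2 was 0.064 without CCR8- replicate 1, also above 0 without CCR8+ replicate 3, and 0.059 without the 3 libraries that stood apart, a setting chosen after seeing the data, and it ran from −0.20 to 0.064 with libraries left out. Cd44 ran from −0.17 to 0.35 in this way, Itgae from −5.59 to −3.11, Cd69 from −0.83 to −0.56, and the median of the 10 genes from −0.59 to −0.37. The ratio of Itga4 to Itgb1 ran from −0.51 to 0.89. That of Itga4 to Itgb7 ran from −0.71 to 0.74, and was 0.68 without the 3 libraries. Of 551 values of other named genes 3 changed sign, 1 of Itgam (−0.46 to 3.52 with libraries left out) and 2 of Vcam1 (−2.44 to 0.84 with libraries left out, 1.14 without the 3 libraries). Genes called over the whole table numbered 1 with the replicate block in limma, 2 without the trend, 27 by DESeq2 with either scaling, 126 by DESeq2 with the replicate block and 0 with any library left out. The cause was not tested. With the replicate block in DESeq2, which called 1.16% of 10818 genes, 2 of the 10 were called, Itgae (adjusted p = 0.0103) and Cd69 (adjusted p = 0.0462), as were Rasgrp2, Cd81, Gpr55 and Klf3, and the block changed no other call among the 10 and the 19 list genes for which alternatives were run. For numbers 1 to 4, the correlation between the 2 libraries of a number, after subtracting group means, was 0.0682, 0.138, 0.108 and 0.217, and 7 of 8 libraries correlated best with their own number, a hint from the data and not from the design. Between 2 and 3 of the 10 genes did not overlap with libraries left out. The median of other integrin subunits ran from −2.90 to −0.55 and that of the ligand list was between −0.75 and 0.36 with libraries left out, that of selectin ligand synthesis went down to −0.34 and that of other adhesion receptors to −0.38. Exact tests were not repeated with fewer than 8 libraries. The number of libraries, and reads of genes under 3.42 normalized counts, limit the precision.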

Other observations

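Genes on the marker lists of other cell types were detected in both groups, which does not by itself show that those cells were present. Of these marker lists, 0 had a gene called by limma. Markers of NK and innate lymphoid cells, 8 of 9 in the table, summed to 7650 to 15606 normalized counts in CCR8- and 7748 to 14415 in CCR8+ cells. Rora alone was at 4430 to 6926 in CCR8- and 4284 to 10906 in CCR8+ cells. Ncr1 and Klrb1c reached 44.3 and 211 in CCR8- cells and were at 0 in every CCR8+ library. Klre1 and Klrb1b reached 157 and 87.4 in CCR8- and 208 and 62.7 in CCR8+ cells. The 7 melanoma markers summed to 105 to 17389 in CCR8- and 232 to 21841 in CCR8+ cells. Endothelial and stromal markers, 5 of 9, summed to 207 to 1692 and 239 to 1624. Of these, Pecam1, also on the list of T cell adhesion receptors used here, was at 183 to 557 and 226 to 423. Neutrophil markers, 3 of 6, summed to 39.5 to 229.5 and 0 to 380.4. B cell markers, 4 of 6, summed to 29.4 to 365 and 0 to 447, with Ms4a1 at 0 in every library. Of 6 gamma delta T cell genes 0 were in the table.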
